A study of Mus musculus with 6 samples.

Results

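Expression of 10 adipocyte and lipogenic genes was followed in mouse calf muscle: the genes for 4 secreted adipocyte proteins (Adipoq, Lep, Retn and Cfd), 3 lipid-droplet proteins (Plin1, Cidec and Plin4), 1 fatty acid carrier (Fabp4) and 2 lipogenic genes (Scd1 and Thrsp). They were taken by gene symbol, and all 10 were found once in each table among 19458 listed genes. The groups were gastrocnemius muscle of Tmem182-/- C57BL/6 mice (3 libraries) and of wild-type C57BL/6 mice (3 libraries), all aged 9 weeks; the sources used here do not give how the knockout allele was made. The tissue field gives skeletal muscle, whereas the extraction text speaks of cultured muscle cells, and the tissue field was followed. Whether the libraries stem from different mice is not in the labels, and p-values thus reflect no more than the spread among these libraries, part of which may be technical.

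Adipocytes store triglyceride in a large droplet coated by perilipin 1 and enlarged by CIDEC, and they secrete adiponectin, leptin, adipsin and, in mice, resistin. Muscle holds adipocytes between its fascicles, and its fibres also carry small droplets of their own. Fabp4 and Plin4 are not restricted to adipocytes: Fabp4 is also made by capillary endothelium, and Plin4 by muscle fibres. Scd1 encodes the desaturase that makes monounsaturated fatty acids, and Thrsp encodes a nuclear protein that is induced by thyroid hormone and carbohydrate in lipogenic tissues.

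The data were RNA-seq expected counts and FPKM values (fragments scaled by transcript length and by library size). Totals were 16212341 to 17986755 expected counts in the knockout and 17617775 to 18672630 in wild type. Tmem182 was at 6.23, 4.30 and 2.17 FPKM in knockout muscle, against 147.48, 121.39 and 120.97 FPKM in wild-type muscle; such values are for libraries 1, 2 and 3 in turn, throughout. For knockout libraries 2 and 3 the source name gives a Tmem gene other than Tmem182, while the genotype field gives Tmem182 for all 3. Knockout library 1 stood apart: its 10 most abundant genes took 22.0% of the counts, against 28.2% to 31.9% in the other 5 libraries, and its TMM scaling factor (edgeR's correction for composition) was 1.19, against 0.933 to 1.04. CPM here is counts scaled to the library total after correction by that factor. Knockout library 1 had the highest CPM of the 6 libraries for 29.9% of all genes tested. Results are therefore also given without it.

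The promoters of the 4 secreted proteins' genes are shown because 3 of these genes varied together across the libraries and the fourth, Lep, followed the same order at its top. Each line is the 150 bases from position -151 to position -2 before the RefSeq transcription start (GRCm38.p6), 5′ to 3′ on the gene's strand, with motif matches in capitals.
Adipoq, chr16:23146385-23146534, plus strand: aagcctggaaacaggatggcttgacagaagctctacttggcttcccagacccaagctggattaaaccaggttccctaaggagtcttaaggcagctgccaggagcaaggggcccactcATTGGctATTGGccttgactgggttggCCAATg
Lep, chr6:29060070-29060219, plus strand: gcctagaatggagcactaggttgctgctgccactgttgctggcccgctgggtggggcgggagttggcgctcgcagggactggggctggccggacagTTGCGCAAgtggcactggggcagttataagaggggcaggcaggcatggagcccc
Retn, chr8:3655619-3655768, plus strand: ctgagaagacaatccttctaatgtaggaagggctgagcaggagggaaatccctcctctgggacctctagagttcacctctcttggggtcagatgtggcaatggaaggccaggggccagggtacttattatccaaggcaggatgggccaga
Cfd, chr10:79890702-79890851, plus strand: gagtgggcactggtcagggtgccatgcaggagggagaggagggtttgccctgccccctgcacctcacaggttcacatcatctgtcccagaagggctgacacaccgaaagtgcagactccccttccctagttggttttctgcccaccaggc

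Promoters of 8 members, 9 windows in all, were searched on both strands over the 250 bases before the start. The C/EBP motif TTNNGCAA was found in 3 of the 9 windows (Lep at -55 to -48, Plin1 at -187 to -180 and -58 to -51, and 1 of the 2 Cidec windows at -198 to -191), and in 9.56% of 32851 mouse promoters of the same length. The CCAAT box, CCAAT, was found in 3 windows, those of Adipoq, Plin4 and Thrsp, and in 33.8% of all promoters; Adipoq held 3 matches, at -34 to -30, -27 to -23 and -7 to -3. The PPAR-RXR element, a direct repeat of AGGTCA with 1 base between (0.0335% of all promoters), the single nuclear receptor site AGGTCA (14.02%), which lies within it, the TATA box TATAAA (12.4%) and the E-box CACGTG (6.02%) had 0 matches in the 9 windows. These matches describe letters only.

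In wild-type muscle the 10 genes spanned a wide range of levels. Fabp4 was highest at 106.9 ± 34.9 FPKM (SD, n = 3, here and in the next sentences), and Plin4 followed at 41.7 ± 5.39 FPKM, with no overlap between them. Scd1 at 9.81 ± 3.02 FPKM and Thrsp at 9.39 ± 0.39 FPKM overlapped, and Cfd lay below Thrsp at 7.75 ± 0.51 FPKM. Unlike Cfd, the adipocyte genes Adipoq, Retn, Cidec, Plin1 and Lep were close to 1 FPKM or below. Adipoq was at 1.24 ± 0.19, Retn at 1.13 ± 0.64, Cidec at 0.76 ± 0.18 and Plin1 at 0.68 ± 0.28 FPKM, each overlapping its neighbour in this order. Lep was lowest at 0.08 ± 0.046 FPKM and did not overlap Plin1.

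**Figure D1:**
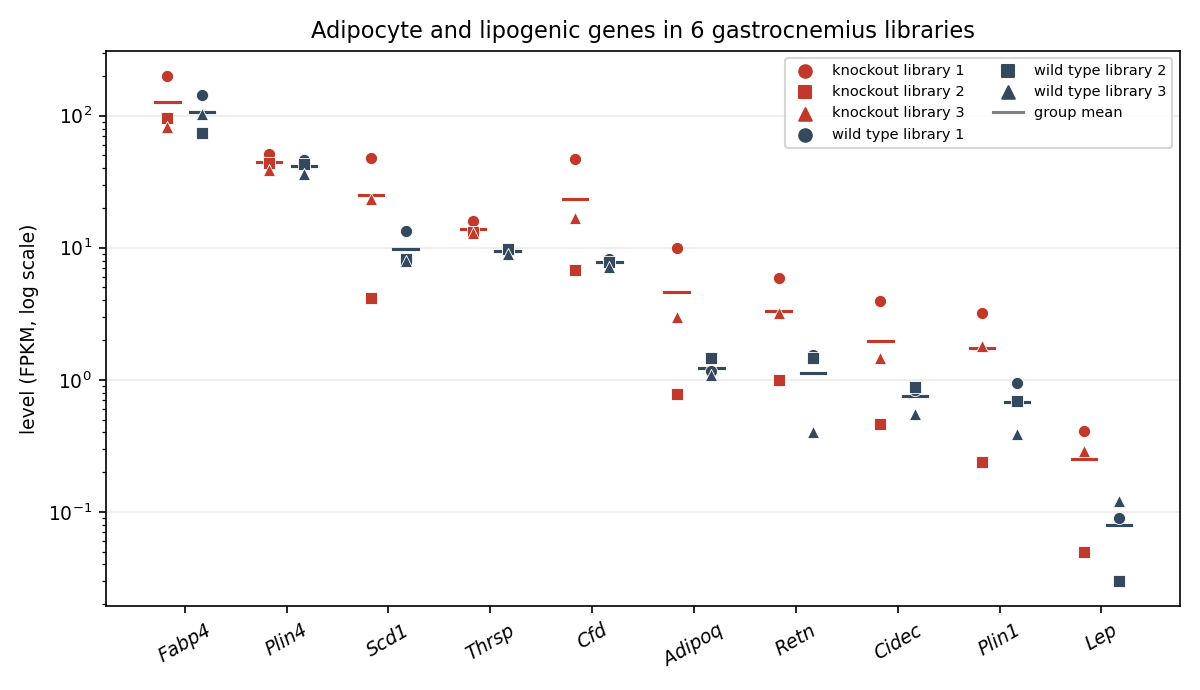
FPKM (log scale) of the 10 genes in knockout libraries (red, left of each gene) and wild-type libraries (dark blue, right), with horizontal bars at the group means; marker shape gives the library number. Thrsp is the gene whose groups do not overlap, at 13.04 to 15.83 FPKM in the knockout and 8.97 to 9.73 FPKM in wild type, while for Adipoq, Cfd, Plin1, Cidec and Scd1 the knockout holds both the highest and the lowest of the 6 values.

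By edgeR's quasi-likelihood test, no member reached an adjusted p under 0.05. Of the 10 genes, 9 passed the filter on low counts and were tested, and Lep did not pass it. Of the 9, 0 were called, against 0.00783% of 12774 genes tested, a single gene, Tmem182. All 9 had a positive fitted log2 fold change (knockout over wild type), against 51.1% of all genes, and 8 of 9 had one without knockout library 1, against 48.4%. The median log2 fold change of the 9 was 1.22, or 0.54 without knockout library 1, against 0.0046 and -0.0067 over all genes. An unadjusted p under 0.05 was reached by 3 members, Thrsp, Cfd and Adipoq, all higher in the knockout; of all genes 3.55% reached it and 2.07% did so with higher values in the knockout. The adjusted p of all 9 was 0.994. A log2 fold change of at least 1 was fitted for 6 members, Adipoq, Retn, Cfd, Cidec, Scd1 and Plin1, and for 0.892% of all genes. Without knockout library 1, 0 members reached a log2 fold change of 1 (0.365% of all genes did), and 1 member, Thrsp, had an unadjusted edgeR p under 0.05 (5.11% of all genes did). DESeq2 called 6 genes, 0 of them members, and gave an unadjusted p under 0.05 to 5 members and to 2.75% of all genes. In bulk muscle, a different number of adipocytes and a different amount of RNA per adipocyte cannot be told apart.

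Among the secreted proteins, Adipoq encodes adiponectin, the hormone that acts on muscle through its receptors AdipoR1 and AdipoR2. Adipoq was at 10, 0.78 and 2.99 FPKM in knockout libraries 1, 2 and 3, against 1.17, 1.45 and 1.09 FPKM in wild-type libraries 1, 2 and 3. Knockout libraries 1 and 3 lay above all wild-type libraries and knockout library 2 below all of them, so the knockout spanned 12.8-fold and wild type 1.33-fold. Its fitted log2 fold change was 1.71 (SE 0.71, 95% interval 0.05 to 3.37, edgeR adjusted p = 0.994), and 0.64 (SE 0.52, interval -0.57 to 1.86) without knockout library 1. The two-sided exact permutation test of its 6 log2 CPM values gave p = 0.4, where 0.1 is the smallest that 3 against 3 libraries allow.

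Cfd encodes adipsin, the complement factor D protease that mouse adipocytes secrete. Its level was 46.77, 6.82 and 16.86 FPKM in knockout muscle, against 8.23, 7.82 and 7.21 FPKM in wild-type muscle. The order was that of Adipoq, with knockout library 1 highest, library 3 next and library 2 lowest of all 6, beside a wild-type group that spanned 1.14-fold. Fitted on counts, Cfd differed by 1.44 on the log2 scale (SE 0.53, 95% interval 0.22 to 2.67, edgeR adjusted p = 0.994), or by 0.66 (SE 0.33, interval -0.12 to 1.44) without knockout library 1.

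Retn encodes resistin, a hormone of adipocytes in mice. Values were 5.86, 1 and 3.18 FPKM in knockout muscle, against 1.53, 1.47 and 0.40 FPKM in wild-type muscle. Knockout libraries 1 and 3 were again above all wild-type libraries, but the lowest value was that of wild-type library 3, so that knockout library 2 lay inside the wild-type range. The log2 fold change of Retn was 1.47 (SE 0.64, 95% interval -0.01 to 2.96, edgeR adjusted p = 0.994), and 0.98 (SE 0.65) without knockout library 1.

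Lep encodes leptin, which signals adipocyte mass to the brain. It had 22, 3 and 17 expected counts (0.41, 0.05 and 0.29 FPKM) in knockout muscle, against 5, 2 and 7 (0.09, 0.03 and 0.12 FPKM) in wild-type muscle. Knockout libraries 1 and 3 were the highest, and knockout library 2 lay between wild-type libraries 1 and 2. Fitted with no filter on low counts, its log2 fold change was 1.53 (SE 0.72, 95% interval -0.09 to 3.16, edgeR adjusted p = 0.961).

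Of the droplet proteins, perilipin 1, encoded by Plin1, coats the adipocyte droplet and controls access of lipases to it; the gene lies on chromosome 7 from 79720218 to 79732903 (GRCm38, minus strand). Plin1 was at 3.18, 0.24 and 1.81 FPKM in knockout muscle, against 0.95, 0.69 and 0.39 FPKM in wild-type muscle. The knockout held both the highest and the lowest value, a 13.25-fold span from 98 and 8 expected counts. Its log2 fold change was 1.19 (SE 0.71, 95% interval -0.46 to 2.83, edgeR adjusted p = 0.994), or 0.59 (SE 0.71) without knockout library 1.

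Cidec encodes the protein that drives fusion and growth of droplets in white adipocytes; it lies on chromosome 6 from 113424634 to 113435760 (minus strand). In the knockout libraries it was at 3.97, 0.46 and 1.45 FPKM, against 0.84, 0.88 and 0.55 FPKM in wild-type muscle. The order of the 3 knockout libraries was the same as for Plin1, and again all 3 lay outside the wild-type range. The difference was 1.23 on the log2 scale (SE 0.62, 95% interval -0.21 to 2.67, edgeR adjusted p = 0.994), and 0.38 (SE 0.49, interval -0.76 to 1.51) without knockout library 1.

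Plin4, the third droplet gene, encodes a perilipin that coats small droplets. Its level was nearly flat: 51.52, 44.17 and 38.94 FPKM in knockout muscle, against 46.55, 42.74 and 35.91 FPKM in wild-type muscle. The groups overlapped throughout, and the whole range over 6 libraries was 1.43-fold. A log2 fold change of 0.04 (SE 0.11) had a 95% interval of -0.22 to 0.30 (edgeR adjusted p = 0.994). Plin4 lies on chromosome 17 from 56100591 to 56109803 (GRCm38, minus strand) and overlaps Hdgfl2 on the opposite strand; the sources used here do not say whether strand was used in counting, so reads of the 2 genes cannot be told apart where they overlap.

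Fabp4 encodes the cytosolic fatty acid-binding protein of adipocytes and capillary endothelium; it lies on chromosome 3 from 10204088 to 10208576 (minus strand). It was at 199.94, 96.10 and 82.35 FPKM in knockout muscle, against 143.57, 73.99 and 103.17 FPKM in wild-type muscle. Knockout library 3, second highest for the 7 genes Adipoq, Cfd, Retn, Lep, Plin1, Cidec and Scd1, was second lowest for Fabp4. The fitted log2 fold change was 0.13 (SE 0.29, 95% interval -0.53 to 0.80, edgeR adjusted p = 0.994), and -0.20 (SE 0.22) without knockout library 1, so its direction turned.

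Scd1, the gene of stearoyl-CoA desaturase 1, lies on chromosome 19 from 44394455 to 44407879 (minus strand). It was at 47.95, 4.18 and 23.20 FPKM in knockout muscle, against 13.29, 8.19 and 7.94 FPKM in wild-type muscle. Like Adipoq, Cfd, Plin1 and Cidec it had knockout library 1 highest, library 3 second and library 2 lowest, an 11.5-fold span. Its log2 fold change was 1.22 (SE 0.65, 95% interval -0.29 to 2.73, edgeR adjusted p = 0.994), and 0.54 (SE 0.58) without knockout library 1. Scd1 was the only member with fractional expected counts, in all 6 libraries: 4.56% of the 50-base words in its GENCODE M21 transcripts also occur in transcripts of other genes, among them Scd2, Scd3 and Scd4, so its counts were partly divided by estimation. For Thrsp and Plin1 the shared words were 0.421% and 0.172%, and for the other 7 members 0%. With library quality weights in limma-voom, the log2 fold changes of Scd1, Plin1 and Fabp4 were -0.10, -0.060 and -0.16, so their direction turned. Under the same weights Adipoq had 0.35, Cfd 0.49, Cidec 0.23, Retn 1.15, Plin4 0.12 and Thrsp 0.52.

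Thrsp behaved unlike the other 9 genes, in that its groups did not overlap. It was at 15.83, 13.08 and 13.04 FPKM in knockout muscle, against 9.48, 9.73 and 8.97 FPKM in wild-type muscle. Every knockout library was above every wild-type library, on FPKM and on CPM, which was so for 4.67% of all genes tested; 9.18% of genes had separate groups in either direction, and 1 of the 9 tested members did. Thrsp had a log2 fold change of 0.50 (SE 0.10, 95% interval 0.26 to 0.74), with an unadjusted edgeR p of 0.00148, which ranked 9 among 12774 genes, and an adjusted p of 0.994. Without knockout library 1 it was 0.51 (SE 0.11), and over all libraries left out in turn it ran from 0.46 to 0.54. The exact permutation test gave p = 0.1, the smallest possible here. Thrsp lies on chromosome 7 from 97412938 to 97417730 (GRCm38, minus strand), and no other annotated gene overlaps it.

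**Figure D2:**
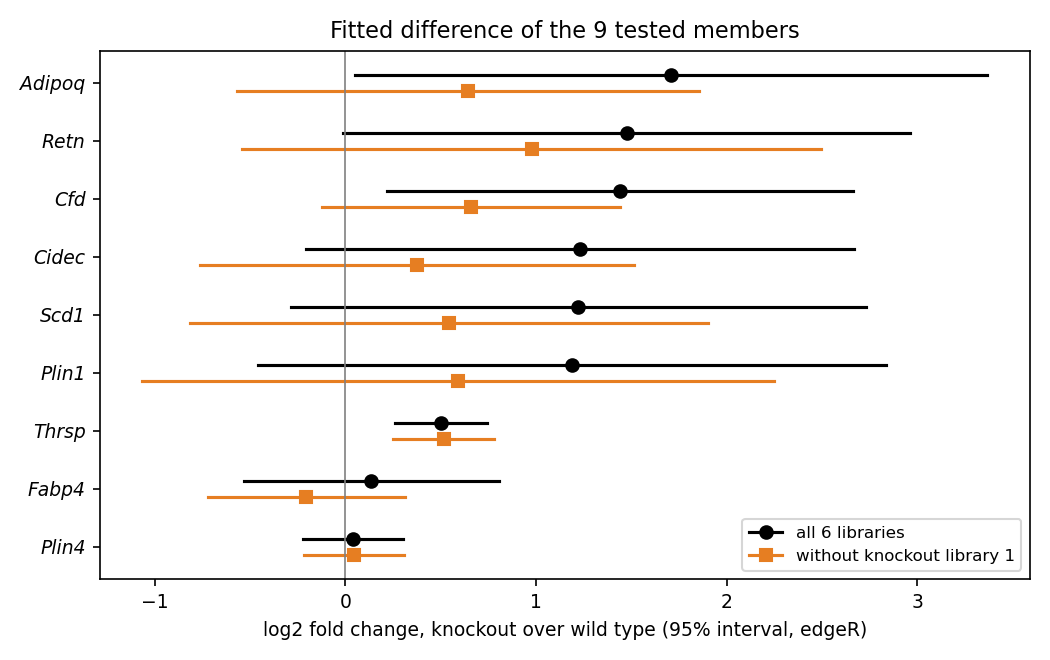
Log2 fold change (knockout over wild type) of the 9 tested members with 95% intervals from edgeR, with all 6 libraries (black circles) and without knockout library 1 (orange squares). Thrsp stays at 0.50 and 0.51 with narrow intervals, Plin4 stays near 0, and the estimates of Adipoq, Retn, Cfd, Cidec, Scd1 and Plin1 are smaller without that library.

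The spread among knockout libraries was wide for 6 of the 9 tested genes. Adipoq, Cfd, Retn, Plin1, Cidec and Scd1 spanned at least 4-fold in CPM among the knockout libraries, a threshold chosen after the values were seen, while 2.25% of all genes did. Between knockout libraries 2 and 3 alone, 2 of the 9 did, Plin1 (7.78-fold) and Scd1 (5.64-fold), against 0.658% of all genes, and Adipoq (3.901-fold), Retn (3.47-fold), Cidec (3.21-fold) and Cfd (2.51-fold) did not. Among wild-type libraries 0 of the 9 did, against 1.82% of all genes, though Retn came near it at 3.77-fold. The SD of log2 CPM within the knockout was 1.62 for Adipoq and 1.22 for Cfd, against 0.22 and 0.04 within wild type. For Plin1, Scd1 and Cidec it was 1.71, 1.68 and 1.34, against 0.51, 0.33 and 0.30 within wild type. Retn differed least of the 6, with 1.10 against 0.85, and its wild-type SD was at percentile 97.7 of all genes. Over all genes the median SD was 0.20 within the knockout and 0.16 within wild type. Thrsp was at the other end, with an SD of 0.03 within the knockout and 0.08 within wild type. That the knockout group held both the highest and the lowest library in FPKM was so for 5 of the 10 genes, and on CPM for 25.6% of all genes tested. The difference in spread between the groups was not tested.

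These 6 genes also moved together over the 6 libraries. Pearson's r of log2 CPM over the 15 pairs they form ran from 0.83 to 0.99, with a median of 0.91. The grouping was made after the values were seen, and all points share 6 libraries, with knockout library 1 far above the rest. Adipoq and Cidec gave r = 0.99 (Spearman's rho 0.94), and Plin1 and Scd1 gave r = 0.98 (rho 1). With these 6 genes, the median r was 0.45 for Fabp4, 0.46 for Thrsp and -0.09 for Plin4.

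**Figure D3:**
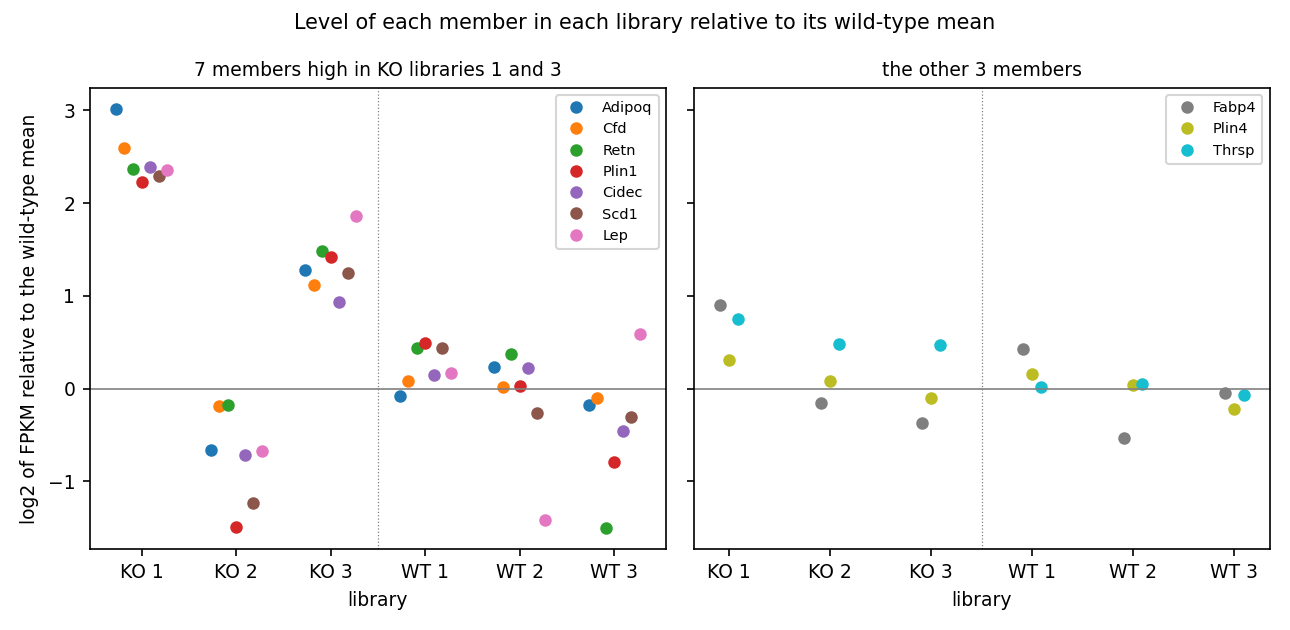
Log2 of FPKM relative to each gene's wild-type mean, by library, knockout libraries at left of the dotted line and wild-type libraries at right; each colour is 1 gene. In the left panel 7 genes are high in knockout libraries 1 and 3 and below their wild-type mean in library 2; in the right panel Thrsp is above its wild-type mean in all 3 knockout libraries, while Fabp4 and Plin4 are not.

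Within a library Cfd, Cidec, Scd1, Plin1, Retn and Lep varied less in proportion to Adipoq than in level. This restates the shared movement above and is no separate result, since genes that move with Adipoq give narrow ratios to it. A nearly flat gene likewise gives a wide ratio, because Adipoq itself spanned 12.8-fold. Cfd per Adipoq (FPKM over FPKM) was 4.68, 8.74 and 5.64 in the knockout libraries, against 7.03, 5.39 and 6.61 in the wild-type libraries. That ratio varied 1.87-fold over 6 libraries in which the level of Cfd varied 6.86-fold. For Cidec the ratio varied 1.81-fold and the level 8.63-fold, for Scd1 2.37-fold and 11.5-fold, and for Plin1 2.64-fold and 13.25-fold. Retn (3.56-fold and 14.65-fold) and Lep (5.32-fold and 13.7-fold) were looser, from as few as 4 and 2 counts in a library. The opposite held for Fabp4, Plin4 and Thrsp, whose ratios to Adipoq varied 6.16-fold, 10.99-fold and 10.6-fold, against 2.70-fold, 1.43-fold and 1.76-fold in level.

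**Figure D4:**
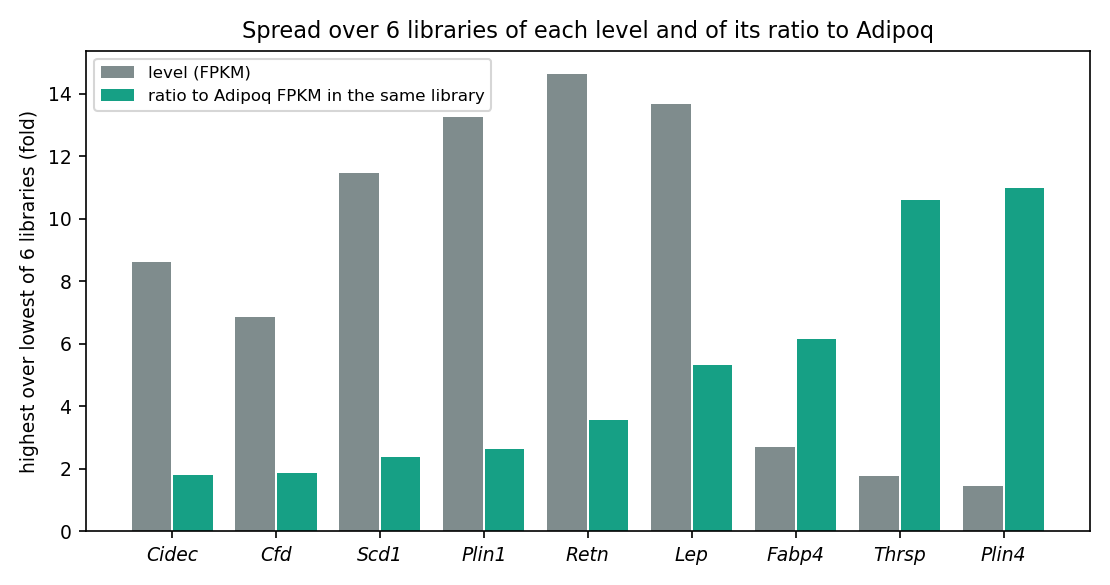
Highest over lowest value among the 6 libraries for the level of each gene (grey, FPKM) and for its ratio to Adipoq FPKM in the same library (green). For Cidec, Cfd, Scd1, Plin1, Retn and Lep the ratio varies less than the level, and for Fabp4, Thrsp and Plin4 it varies more. The ratios restate how far each gene moves with Adipoq.

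Other adipocyte genes, 25 in the list, were mostly low, and 18 were tested. Of these 0 passed in either direction, 12 had a positive and 6 a negative log2 fold change, and the median was 0.59, or 0.02 without knockout library 1. Cyp2e1, a cytochrome P450, was at 16.17, 3.01 and 3.31 FPKM in knockout muscle, against 2.83, 1.83 and 1.98 FPKM in wild-type muscle, with separate groups (log2 fold change 1.60, SE 0.57, edgeR adjusted p = 0.994). Lipe, hormone-sensitive lipase, was at 14.39, 6.45 and 5.34 FPKM, against 5.56, 5.13 and 5.11 FPKM in wild type (0.61, SE 0.27). Its groups were separate on CPM but not on FPKM. On CPM 2 of the 18 tested genes had separate groups, against 9.18% of all genes. Pck1, which supplies glycerol for triglyceride in adipocytes, was at 3.06, 0.15 and 0.43 FPKM, against 0.41, 0.20 and 0.19 FPKM in wild type (1.97, SE 0.93). Sncg, gamma-synuclein, had a log2 fold change of 0.67 (SE 0.37). On FPKM knockout library 1 was the highest of all 6 for Cyp2e1, Lipe, Pck1 and Sncg, the tested genes of smallest p in the list. On CPM knockout library 1 was highest for 12 of the 18, against 29.9% of all genes tested. The 6 negative values were -0.30 (Aqp7), -0.25 (Pnpla3), -0.22 (Gpd1), -0.16 (Agt), -0.069 (Car3) and -0.046 (Nrg4). Pparg and Adig had 0.45 and 0.73. Without knockout library 1 they had -0.11 and -0.69, while 12 of the 18 were positive.

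Lipogenic genes gave 23 tested members of 24, with 0 called in either direction, 17 positive and 6 negative, and a median of 0.08 (10 positive and a median of -0.01 without knockout library 1). Fasn, fatty acid synthase, was at 12.05, 2.10 and 5.89 FPKM in knockout muscle, against 4.06, 4.09 and 3.01 FPKM in wild-type muscle, the same order of knockout libraries as Scd1 (log2 fold change 0.71, SE 0.46). Acaca, acetyl-CoA carboxylase 1, was at 7.89, 3.09 and 3.44 FPKM, against 3.66, 2.97 and 3.33 FPKM in wild type (0.43, SE 0.25). The log2 fold change was 0.84 (SE 0.52) for Agpat2, an acyltransferase of triglyceride synthesis, and 0.65 (SE 0.40) for Slc25a1, the mitochondrial citrate carrier. Of the 23, 0 had separate groups, where 9.18% of all genes did.

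Of 20 droplet, lipolysis and uptake genes 19 were tested and 0 were called, with 16 positive, 3 negative and a median of 0.24 (8 positive and a median of -0.0074 without knockout library 1). Fabp3, the muscle fatty acid-binding protein, was at 813.61, 308.98 and 135.13 FPKM in knockout muscle, against 267.57, 72.93 and 237.95 FPKM in wild-type muscle (log2 fold change 0.97, SE 0.61). The log2 fold change was 0.17 (SE 0.12) for Abhd5, the co-activator of triglyceride lipase, and -0.16 (SE 0.11) for Fitm1, a droplet-forming protein of muscle. Of the hormones' receptors and effectors, 11 were tested, 0 were called, and the median was 0.03 with or without knockout library 1. Adipor1, an adiponectin receptor, was at 110.43, 119.67 and 134.70 FPKM, against 120.74, 144.20 and 117.81 FPKM in wild type, far above Adipoq itself. Socs3, an inhibitor of leptin and cytokine receptor signalling, was at 5.29, 4.12 and 1.79 FPKM, against 1.30, 1.23 and 1.87 FPKM in wild type (1.24, SE 0.35, edgeR adjusted p = 0.994), and C3, the central complement protein, had 0.52 (SE 0.24).

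Relatives of the members in the same gene families were also examined. Of 19 listed, 18 were found and 14 tested, with 0 called in either direction, 12 positive, 2 negative and a median of 0.12 (8 positive and a median of 0.02 without knockout library 1). Retnla, a resistin-like gene of macrophages, was at 18.90, 7.50 and 12.52 FPKM in knockout muscle, against 8.75, 7.4 and 7.55 FPKM in wild-type muscle (log2 fold change 0.62, SE 0.26, edgeR adjusted p = 0.994). Plin2, the perilipin of most other tissues, had 0.16 (SE 0.15), and Scd3 had -0.89 (SE 0.47) at no more than 0.29 FPKM.

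Markers of other cell types were also high in knockout library 1 on FPKM, which was used without the TMM correction. Each list is given as the median over its tested genes of FPKM relative to the wild-type mean, and for the 9 members that median was 4.89, 0.88 and 2.17 in knockout libraries 1, 2 and 3, against 1.12, 1.02 and 0.86 in the wild-type libraries. Macrophage markers (10 of 10 tested, 0 called) had 2.80, 0.90 and 1.37, against 1.25, 0.92 and 0.82 in wild type. Schwann cell markers (10 of 10 tested, 0 called) had 3.25, 0.60 and 0.92, against 2.13, 0.30 and 0.53 in wild type. Fibro-adipogenic progenitor markers (11 of 11 tested, 0 called) had 1.75, 0.84 and 1.01, against 1.22, 0.80 and 1.01 in wild type. Endothelial markers (10 of 10 tested, 0 called) had 1.69, 1.01 and 0.71, against 1.25, 0.77 and 0.99 in wild type. In knockout library 3 the members' median was thus 2.17 while those 4 lists lay between 0.71 and 1.37. The other adipocyte genes had 1.13 in that library and the lipogenic genes 0.98, both within the range of those 4 lists. On CPM, which holds the TMM correction, knockout library 1 was highest for 7 of the 9 members, against 29.9% of all genes tested. It was highest for 10 of 10 macrophage, 8 of 10 Schwann cell, 9 of 11 progenitor and 7 of 10 endothelial markers.

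Summed over each list, macrophage markers were at 86.7 FPKM in knockout library 1, 28.1 to 40.5 FPKM in the other knockout libraries and 24.6 to 36.3 FPKM in wild-type muscle, and none of the 10 was at 0. Progenitor markers summed to 217.9 to 422.3 FPKM in the knockout and 176.6 to 374.5 FPKM in wild type, endothelial markers to 91.6 to 205.6 and 97.1 to 157.6 FPKM, and Schwann cell markers to 53.0 to 324.4 and 21.6 to 214.0 FPKM, again with no marker at 0. Macrophage markers followed, in mean standardised level, the 6 genes Adipoq, Cfd, Retn, Plin1, Cidec and Scd1 with r = 0.94 (rho 0.83, 6 libraries). Lipogenic genes gave r = 0.88 with these 6 genes, progenitor markers 0.71 and Schwann cell markers 0.57. Endothelial markers gave 0.15 and slow fibre genes 0.0028. Fabp4 gave 0.94 with endothelial markers and 0.97 with the droplet and uptake genes, but high values with most other lists too. Among these were 0.91 with progenitor markers, 0.88 with Schwann cell markers and 0.82 with slow fibre genes. With the other adipocyte genes Fabp4 gave 0.84, and the 6 genes Adipoq, Cfd, Retn, Plin1, Cidec and Scd1 gave 0.85. Plin4 gave no r above 0.41 in size with any of the 12 lists. These values share the same 6 libraries, and the part of other cell types in the members' levels was not tested.

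**Figure D5:**
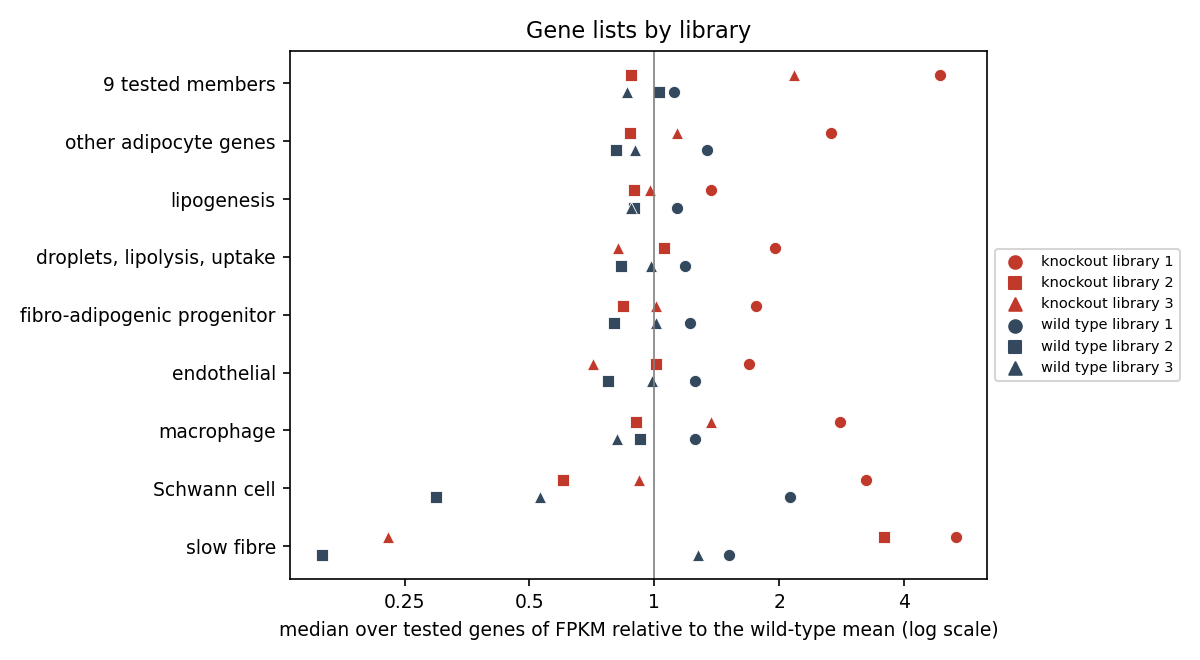
Median over the tested genes of each list of FPKM relative to the wild-type mean (log scale), with knockout libraries in red above and wild-type libraries in dark blue below, and marker shape for the library number. Knockout library 1 is the highest for every list drawn, and knockout library 3 stands out for the members at 2.17 but lies at 1.37 or below for the others.

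The 8 genes outside the lists, at a mean of at least 1 FPKM, whose log2 CPM was most like the mean standardised level of the 9 tested members over the 6 libraries were Adamts5 (r = 0.99), Fastk (0.99), Unc93b1 (0.98), Ccl9 (0.98), Ykt6 (0.98), Mrpl38 (0.98), Ifi27l2a (0.98) and Topbp1 (0.97). Ifi27l2a was at 17.54, 2.56 and 8.02 FPKM in knockout muscle, against 4.31, 3.69 and 2.73 FPKM in wild-type muscle. Adamts5 was at 3.50, 1.67 and 2.24 FPKM, against 2.14, 1.84 and 1.53 FPKM in wild type. Their ranges were narrower than that of Adipoq, and with 6 libraries such values describe the order of the libraries and little more.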

How the data were processed

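RNA-seq of gastrocnemius from 3 Tmem182-/- and 3 wild-type libraries was grouped by the genotype label. Per the file headers, every gene has counts and FPKM. The deposited counts are raw expected counts, of which 26.2% to 27.5% are not whole; the authors' FPKM are deposited beside them. Per the submitters' processing notes, the tools were RSEM 1.2.12, HISAT2 2.0.4 and Bowtie2 2.2.5, with GRCm38; the sources used here do not give their roles, the annotation or the handling of strand.

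Expected counts were rounded to whole numbers. Genes kept by filterByExpr (minimum count 10), 12774 of 19458, were scaled by TMM and compared in R 4.3.3 with edgeR 4.0.16 (two-sided quasi-likelihood F test), p-values being adjusted by Benjamini-Hochberg over all genes tested, a threshold of 0.05, no covariate and no block. SEs were obtained from each fold change (log2) and its F statistic, as |log2 fold change|/√F; intervals are at the 95% level. log2 CPM used a prior count of 2. Named genes are the 10 members, Tmem182, listed relatives and 8 genes of like pattern. Up to 4 members of each list, those with the smallest p, are also named. Genes named beyond this were chosen after their values were seen. They are Adipor1, Mrap, Ucp1, Krt5, Krt14 and, for its overlap with Plin4, Hdgfl2. Pparg, Adig and the other adipocyte genes with a negative log2 fold change were likewise chosen after their values were seen. Members and lists were chosen with earlier results of these data known. Symbols on 2 rows (3 in all) kept the row with more counts. Depth was 16212341 to 18672630 expected counts; the common biological coefficient of variation was 18.8%, and no pair of libraries was within counting noise (chi-square per degree of freedom at least 13.6). Same-numbered libraries deviated from their group means with r = 0.52, 0.18 and -0.12, so the numbers were not taken to pair them. Alternatives were limma 3.58.1 and DESeq2 1.42.0, other filters, pseudocounts and scaling, a replicate block and each library left out. Positions, overlaps and shared words come from GENCODE M21 (GRCm38), and promoters from RefSeq (GRCm38.p6), where 8 of 10 members had an entry.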

Additional observations from a re-analysis of the deposited data

How the results depend on the processing

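Of the members, 0 passed the threshold under any of the 15 alternatives. DESeq2's Wald test called 6 genes in all, and with each library left out in turn edgeR called 0 to 1; the count was 0 when knockout library 2 or wild-type library 3 was left out, where Tmem182 had an adjusted p of 0.0716 and 0.0529. The members' median log2 fold change, 1.22, was 0.23 with limma-voom quality weights and 0.54 to 1.70 with each library left out. With limma it was 0.58 on log2(FPKM + 1) and 0.81 on log2(FPKM + 0.1). Adding 1 understates low genes by construction, but how much of the change this made was not tested. The cause of the other changes was not tested either. Counts without knockout library 1, an alternative chosen after seeing the data, were 1 in place of 3 members at an unadjusted p under 0.05, 0 in place of 6 with a log2 fold change of at least 1, and 2 in place of 6 spanning at least 4-fold within the knockout. Direction was reversed with quality weights for Plin1 (-0.060), Fabp4 (-0.16) and Scd1 (-0.10). With libraries left out, Fabp4 ran from -0.20 to 0.34 and Plin4 from -0.030 to 0.073. Adipoq, Cfd, Retn, Cidec and Thrsp kept their direction in all 14 alternatives that refit single genes, though with quality weights Adipoq, Cfd and Cidec were at 0.35, 0.49 and 0.23, and the adjusted p of Thrsp ranged from 0.547 to 1. With the replicate number as a block, which the labels do not show to be a pairing, the count of genes was 1 and the members' median 0.96, and no call changed. Depth limits Lep most, at 2 to 22 counts per library.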

Other observations

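Of the 7 other adipocyte genes that were too low to test, Mrap, the melanocortin receptor accessory protein, had 1.4, 0.06 and 1.03 FPKM in knockout muscle, against 0.53, 0.17 and 0.4 FPKM in wild-type muscle. Of 10 brown and beige adipocyte genes 6 were tested and 0 called, 4 with a positive log2 fold change (median 0.15). Ucp1, the uncoupling protein of brown adipocytes, was at 0 counts in all 6 libraries. A count of 0 allows up to 3 counts (counting error only), or 0.161 to 0.185 CPM per library without the TMM correction.

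Slow fibre genes differed widely between libraries of both groups: 10 of 10 were tested and 0 called, the median log2 fold change was 1.49 (0.93 without knockout library 1), and their summed level was 2671, 1840 and 97.4 FPKM in the knockout libraries, against 805.8, 88.7 and 668.3 FPKM in the wild-type libraries. The list of blood and keratinocyte genes had 5 of 7 tested, 0 called and 1 positive. Its median relative to the wild-type mean was 2.01, 0.43 and 0.67 in the knockout libraries, against 0.82, 1.18 and 0.98 in wild type. On CPM, knockout library 1 was the highest for 4 of the 5, against 29.9% of all genes tested. The tested keratin Krt10 was at 6.65 FPKM in wild-type library 2 and at 0.47 to 0.61 FPKM in the other 5 libraries. The untested keratins Krt5 and Krt14 were at 1.69 and 1.64 FPKM in wild-type library 2 and at no more than 0.03 FPKM in the other 5 libraries.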
